A study of Mus musculus with 6 samples.

Results

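The genes followed here are 39 genes of cell adhesion, chosen by name as integrin subunits, their cell-surface ligands, selectins and selectin ligands, junction molecules and tetraspanins. Of the 39 genes, 37 had a probe set annotated to that symbol alone, and 25 of those passed the filter on low values, out of 10302 genes that did so in the whole series. Itgad and Itga11 were not analysed here. The arrays measured RNA from mouse embryonic stem cell (ESC) derivatives labelled T-cell progenitors. The stem cells were heterozygous (Gata3+/-, 3 arrays) or homozygous (Gata3-/-, 3 arrays) for a loss of Gata3, the T-lineage transcription factor. Both genotypes grew on the mouse stromal lines OP9 and OP9-DL1, the latter carrying a Notch ligand, with the cytokines IL-7 and Flt3L, and progenitors were taken by flow sorting. Neither the sort gate nor the number of stem cell clones is stated, and a wild-type group was not analysed here.

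Integrins are heterodimers of an alpha and a beta subunit that attach cells to matrix or to counter-receptors on other cells. White blood cells use a set of their own, built on the beta2 and beta7 chains and on alpha4, to bind ICAM, VCAM-1 and MAdCAM-1 on endothelium and stroma. Fibroblasts, smooth muscle and many other cells use alpha5, alphaV, beta1 and beta5 to bind fibronectin, vitronectin and collagen. Selectins and their glycosylated ligands, such as PSGL-1, start the rolling of leukocytes on vessel walls. In the thymus and on bone marrow stroma, alpha4beta1 and VCAM-1 hold early progenitors in their niche.

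Levels are log2 intensities, and a difference is Gata3-/- minus Gata3+/- unless stated otherwise. Means are given ± SD over n = 3 arrays, and differences with their standard error (SE). The deposited array medians lay between 8.57 and 8.93 on the linear scale, and the number of arrays limits the precision. The probe set of Gata3 itself stood at 5.88 ± 0.50 and 5.93 ± 0.48 in Gata3+/- and Gata3-/- arrays, and since the altered part of the gene is not stated, this does not check the genotypes. Of 16 T-lineage markers on the array, 15 never reached the filter's minimum, a log2 value of 4, among them Cd3e, at 2.41 to 2.5. The one tested, Cd5, read 4.50, 4.50 and 5.24 on Gata3+/- and 6.26, 6.71 and 5.59 on Gata3-/- arrays, without overlap, and did not pass (adjusted p = 0.0764). Csf1r, a receptor of monocytes and macrophages, stood between 14.24 and 14.60. Array 2 of both genotypes had the lowest mean level of stromal marker genes, as given further on. RNA came from sorted cells in bulk, so fewer cells of a type and less RNA per cell cannot be told apart.

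Promoter windows are shown for 4 members whose windows begin at the start of the gene and that differed in how array 2 compared with the others. They come from the RefSeq table of assembly GRCm38.p6, which held windows for 27 of the 39 members, each running from 250 bases before a transcript start to 50 bases after it. Capitals mark GAGGAA on either strand, letters within the element bound by PU.1, the myeloid and lymphoid ETS factor. The windows are of Itgam (chr7:128062390-128062689, plus strand), the alphaM chain of leukocytes, and Itga4 (chr2:79255176-79255475, plus strand), the alpha4 chain. They are followed by Itga5 (chr15:103366742-103367041, minus strand), the fibronectin receptor chain, and Alcam (chr16:52453032-52453331, minus strand), an immunoglobulin-family adhesion molecule.
Itgam: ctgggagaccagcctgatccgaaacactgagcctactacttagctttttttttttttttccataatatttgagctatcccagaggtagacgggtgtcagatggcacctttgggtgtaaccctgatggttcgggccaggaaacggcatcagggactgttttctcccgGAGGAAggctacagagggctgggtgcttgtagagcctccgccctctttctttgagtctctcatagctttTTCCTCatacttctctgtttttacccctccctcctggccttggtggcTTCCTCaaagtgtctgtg
Itga4: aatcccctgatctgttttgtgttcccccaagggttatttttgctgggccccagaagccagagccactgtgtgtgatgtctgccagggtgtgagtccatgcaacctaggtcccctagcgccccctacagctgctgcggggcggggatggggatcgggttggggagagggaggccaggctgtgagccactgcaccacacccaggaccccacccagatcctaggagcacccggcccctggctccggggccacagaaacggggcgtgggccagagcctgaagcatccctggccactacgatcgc
Itga5: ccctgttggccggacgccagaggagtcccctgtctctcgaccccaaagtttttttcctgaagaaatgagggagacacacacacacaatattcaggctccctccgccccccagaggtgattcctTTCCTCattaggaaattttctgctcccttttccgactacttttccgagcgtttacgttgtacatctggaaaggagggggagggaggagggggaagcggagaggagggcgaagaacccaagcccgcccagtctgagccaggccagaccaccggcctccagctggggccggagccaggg
Alcam: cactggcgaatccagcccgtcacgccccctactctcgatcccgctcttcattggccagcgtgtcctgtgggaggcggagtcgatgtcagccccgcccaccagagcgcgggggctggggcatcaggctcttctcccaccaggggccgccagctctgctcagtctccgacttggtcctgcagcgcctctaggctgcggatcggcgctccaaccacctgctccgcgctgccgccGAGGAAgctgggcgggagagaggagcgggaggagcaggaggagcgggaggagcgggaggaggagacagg

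The letters GAGGAA occurred 3 times in the Itgam window, 84 and 15 bases before the start and 32 bases after it. They occurred once in the Itga5 window, 127 bases before the start, and once in the Alcam window, 19 bases before it, while the Itga4 window held none. Of the 30 windows of members 12 held the letters (40.0%), and 28.3% of all 32851 listed windows did. The table lists some genes at more than 1 transcript start, and not every window is at the start of the gene: the one of Itga9, which held no match, lies inside it. Of the members that lay lower on array 2 in both genotypes, a group described further on, 6 of 10 with a window held them. Of those that lay higher 1 of 5 did. A match is a description of these letters only.

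Across the members, 1 of 25 passed the test between genotypes, lower in Gata3-/- arrays, and 0 passed higher (limma, adjusted over all probe sets). Among all genes tested 5.27% passed in either direction and 2.41% passed as lower. The members' share of 4% was thus near the background. At an unadjusted p under 0.05 (limma), 6 of the 25 differed, and 2663 of all 10302 genes did, a similar share. The median difference of the 25 was -0.16, with 10 positive and 15 negative, against -0.02 over all genes. The values of the 2 genotypes did not overlap for 2 members that lay higher (8%, against 16.9% of all genes) and 4 that lay lower (16%, against 16.7%).

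**Figure D1:**
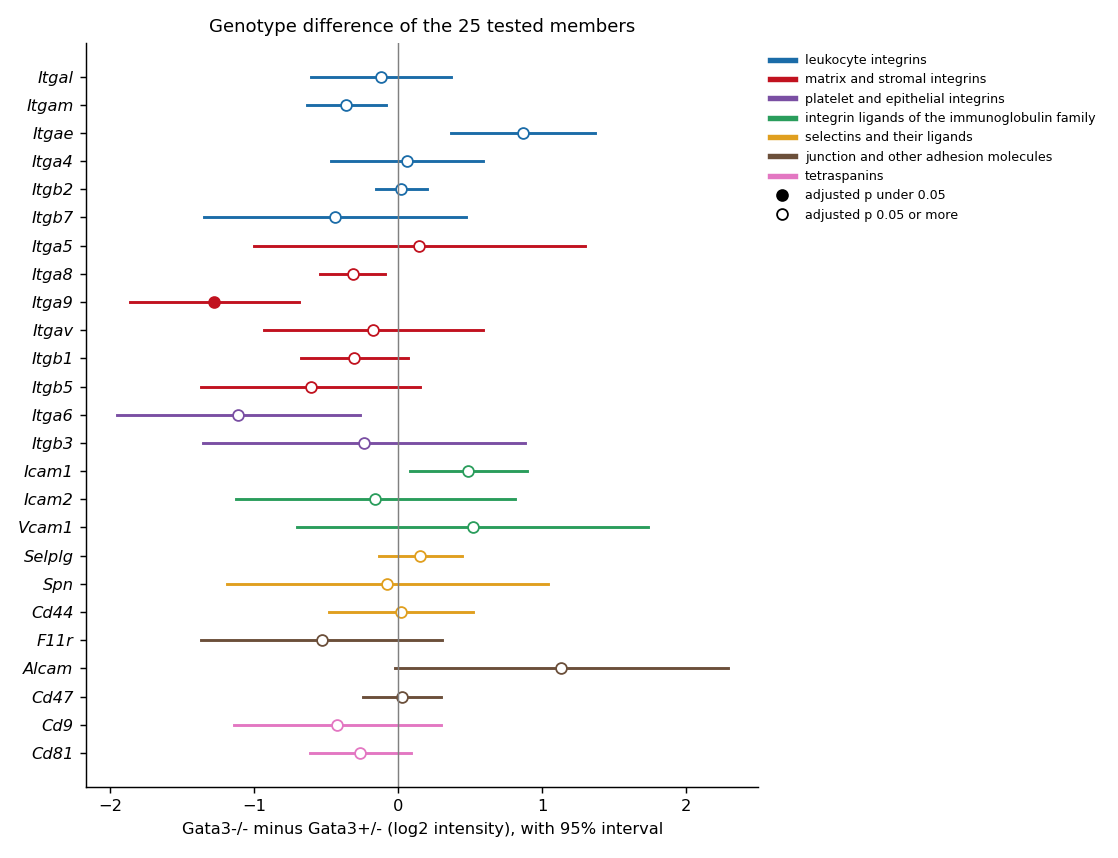
Difference between genotypes (Gata3-/- minus Gata3+/-, log2 intensity) for the 25 tested members, one row per gene, coloured by role. Points are the fitted differences over 3 against 3 arrays, bars are 95% intervals, and the filled point is the member that passed the test, Itga9 at -1.28; Itga6 at -1.11 and Alcam at 1.13 were of similar size with wider intervals.

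The member that passed was Itga9, the alpha9 chain, which pairs with beta1 and binds tenascin-C, osteopontin and VCAM-1. Its chosen probe set read 8.61, 9.35 and 8.84 on Gata3+/- arrays 1 to 3 and 7.92, 7.69 and 7.36 on Gata3-/- arrays 1 to 3. The genotypes did not overlap, and the lowest Gata3+/- array lay above the highest Gata3-/- array. Itga9 fell from 8.93 ± 0.38 to 7.66 ± 0.28, a difference of -1.28 (SE 0.24), or 2.42-fold lower (adjusted p = 0.0478). A second probe set read 7.13, 7.59 and 7.30 against 6.05, 6.18 and 5.95, with a difference of -1.28 (SE 0.14, adjusted p = 0.0281). The third read 5.58, 5.88 and 6.03 against 4.88, 5.42 and 5.42, with a difference of -0.59 that did not pass (adjusted p = 0.149). Thus 2 of the 3 tested probe sets passed and all 3 kept the genotypes apart.

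The Itga9 call lay close to the threshold. Without the filter it was lost on the same 6 arrays (adjusted p = 0.129). With the replicate number as a block in the fit it was lost too (adjusted p = 0.0689). Leaving out any 1 array ended it, with differences from -1.44 to -1.07 and adjusted p-values from 0.0976 to 0.124. Without both arrays numbered 2 the difference was -1.08 (adjusted p = 0.170). This loss was not particular to Itga9. Calls over all 10302 genes fell from 543 to between 0 and 4 with each array left out, and to 3 without both arrays numbered 2. Without the filter 98 of 18193 genes were called. Over all alternatives run the adjusted p of Itga9 lay between 0.0251 and 0.170. Of the markers of monocytes and macrophages 9 of 10 tested also had negative differences: 3 of 10 tested members of that list passed as lower (Fcgr1, Mpeg1 and Ccr2) and 0 as higher, against 2.41% of all genes as lower. Cd68, a lysosomal protein of macrophages, went the other way by 0.53, with no overlap between genotypes, and did not pass (adjusted p = 0.0541). Its gene is on chromosome 11, where the 886 tested genes had a median difference of 0.33. The part of that shift in the Cd68 value was not tested. The mean level of that list was 12.75 to 12.91 in Gata3+/- and 12.01 to 12.32 in Gata3-/- arrays, and Cd163 was under the minimum throughout. The part of these cells in the Itga9 result was not tested.

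**Figure D2:**
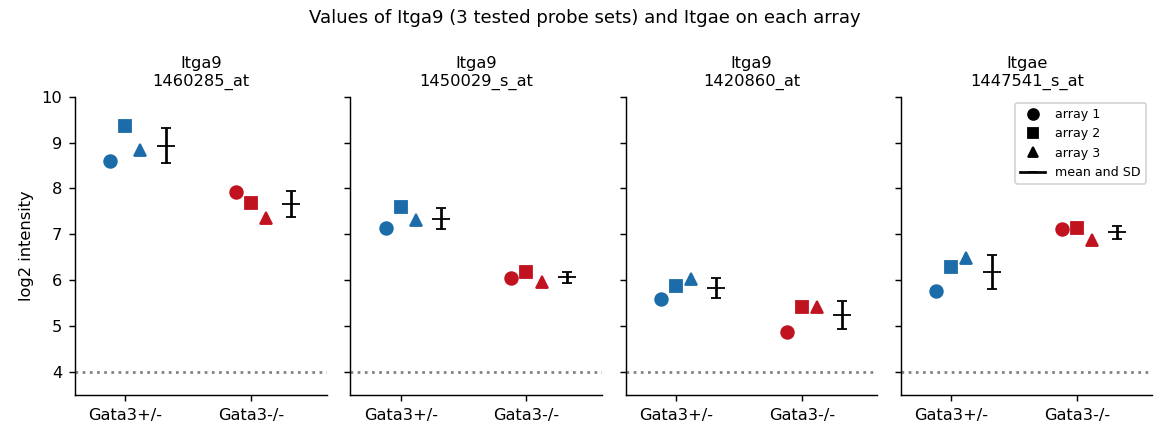
Log2 intensity on each array for the 3 tested probe sets of Itga9 and the chosen probe set of Itgae, Gata3+/- in blue and Gata3-/- in red, with symbols for the array number, the mean and SD beside the points, and the filter minimum of 4 dotted. Itga9 is lower on every Gata3-/- array in all 3 probe sets, and Itgae is higher on every Gata3-/- array (6.87 to 7.14 against 5.76 to 6.48).

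Among the 7 leukocyte integrin subunits 6 were tested and none passed. Itgae, the alphaE chain that binds E-cadherin and marks intraepithelial lymphocytes and some dendritic cells, read 5.76, 6.30 and 6.48 on Gata3+/- and 7.12, 7.14 and 6.87 on Gata3-/- arrays. The genotypes did not overlap, yet the difference of 0.87 (SE 0.20) missed the threshold (adjusted p = 0.0719). Its other tested probe set had a difference of 0.43 (adjusted p = 0.231). Itgae is on chromosome 11, where the 886 tested genes had a median difference of 0.33, with 94 passing as higher and 2 as lower. On that chromosome 57.2% of tested genes lay higher without overlap, against 16.9% of all genes. The part of that shift in the Itgae value was not tested. Cdh1, the E-cadherin gene, read 6.33, 4.78 and 5.58 against 9.0, 7.12 and 7.25, and its difference of 2.22 did not pass either (adjusted p = 0.108). Of the 4 tested epithelial markers, Cdh1 among them, 2 had positive and 2 had negative differences. Epcam passed as higher (adjusted p = 0.0363), 1 of 4 against 5.27% of all genes in either direction, and Krt8 went the other way by -1.57 without passing.

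The beta2 integrins bind ICAMs and complement fragments. Itgb2, their common beta chain, read 12.07, 12.20 and 12.14 on Gata3+/- and 12.17, 12.19 and 12.11 on Gata3-/- arrays. All 6 values lay within a narrow band, and the difference of 0.02 had a 95% interval from -0.16 to 0.20. Itgal, the alphaL chain of LFA-1, had a difference of -0.12 with an interval from -0.60 to 0.37. Itgam, the alphaM chain of Mac-1 (CD11b), read 10.73, 10.78 and 10.48 against 10.22, 10.26 and 10.43. The genotypes did not overlap, but the difference of -0.36 (SE 0.11) did not pass (adjusted p = 0.130).

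Among the leukocyte integrins, the chains that bind VCAM-1 and MAdCAM-1, Itga4 and Itgb7, did not pass. Itga4, the alpha4 chain of progenitors and lymphocytes, had a difference of 0.06 with an interval from -0.47 to 0.59. Itgb7, which pairs with alpha4 or alphaE, had a difference of -0.44 with an interval from -1.35 to 0.47. Array 2 lay above the other arrays of its genotype for both genes.

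Of the 12 matrix and stromal integrin subunits 6 were tested, and 5 beside Itga9 did not pass. Itgb1, the beta chain shared by most matrix integrins, stood at 12.14 ± 0.12 and 11.83 ± 0.26, a difference of -0.30 (adjusted p = 0.298). Itgb5, which pairs with alphaV to bind vitronectin, had a difference of -0.61 (SE 0.31). Itgav had one of -0.17, and Itga5 of 0.15 with an interval from -1.0 to 1.30. Itga8, a chain of smooth muscle and kidney, read 4.58, 4.69 and 4.68 against 4.23, 4.48 and 4.31, all close to the minimum, with a difference of -0.31 (adjusted p = 0.113). Its groups did not overlap, though all 6 values lay within 1 log2 unit of the minimum. Itga1, Itga3, Itga7, Itgb6 and Itgb8 never reached the minimum on any array, with values from 2.31 to 3.28.

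Of the 4 platelet and epithelial subunits 2 were tested. Itga6, the alpha6 chain, binds laminin and is used by progenitors, platelets and epithelia. It read 10.82, 10.40 and 11.09 on Gata3+/- and 10.20, 9.01 and 9.79 on Gata3-/- arrays. Every Gata3-/- array lay below every Gata3+/- array, by a mean difference of -1.11 (SE 0.34), which did not pass (adjusted p = 0.128). Its second probe set gave -1.22 (adjusted p = 0.137). Itgb3, the beta3 chain of platelets and of the vitronectin receptor, had a difference of -0.24 with an interval from -1.35 to 0.88. Its gene is on chromosome 11, where the median difference was 0.33, and the part of that shift in its value was not tested. Megakaryocyte and platelet markers also lay on the negative side, 6 of 6 tested, with a median of -0.46 and 0 passing, and their mean level overlapped between genotypes at 10.42 to 10.76 and 9.68 to 10.80. Their part in the Itga6 values was not tested. Itga2 and Itgb4 never reached the minimum.

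The members grouped as integrin ligands were of the immunoglobulin family. Icam1, the inducible ligand of LFA-1 and Mac-1, read 10.99, 10.82 and 11.33 against 11.70, 11.34 and 11.56. Its lowest Gata3-/- value was just above the highest Gata3+/- value, and the difference of 0.49 (SE 0.16) did not pass (adjusted p = 0.154). Vcam1, the ligand of alpha4beta1 on stroma and endothelium, had a difference of 0.52 with an interval from -0.70 to 1.74, and Icam2 one of -0.16 with an interval from -1.13 to 0.81. The gene of Icam2 is on chromosome 11 too, and the part of that chromosome's shift in its value was not tested. Madcam1, the ligand of alpha4beta7, never reached the minimum. Icam4, a red cell ligand of integrins, read 4.51 on Gata3-/- array 2 and 2.99 to 3.10 on the other arrays, so it was not tested.

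Of the selectin group, the endothelial selectins Selp and Sele never reached the minimum, at 2.26 to 2.76. Their ligand Selplg (PSGL-1) was measured on every array at 9.87 to 10.28, with a difference of 0.15 and an interval from -0.14 to 0.44. Cd44, the hyaluronan receptor that also carries selectin ligands, had a difference of 0.02 with an interval from -0.48 to 0.52. Spn, the sialomucin CD43, had one of -0.07 with an interval from -1.19 to 1.04.

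Among the remaining adhesion molecules, Alcam, which binds CD6 and itself, read 8.83, 7.90 and 9.45 on Gata3+/- and 9.95, 9.26 and 10.37 on Gata3-/- arrays. The groups overlapped, since Gata3+/- array 3 lay above Gata3-/- array 2. Its difference of 1.13 (SE 0.47) did not pass (adjusted p = 0.222), and its 3 other tested probe sets had differences of 0.92 to 1.81. With the replicate number as a block in the fit Alcam did pass, as given in the closing section. F11r (JAM-A), a junction molecule, had a difference of -0.53 and Cd47, the integrin-associated ligand of SIRP-alpha, one of 0.02 with an interval from -0.25 to 0.30. The tetraspanins Cd9 and Cd81, which sit beside integrins in the membrane, had differences of -0.42 and -0.26. Jam3 never reached the minimum. Of 27 further tested probe sets of the members, 22 had the sign of the chosen one.

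Array 2 of each genotype was then set against arrays 1 and 3 of that genotype. The arrays numbered 2 had been singled out on earlier results of these data, so the values are a description with no test. A gene counts as lower where array 2 lay below both others in both genotypes, and its differences are array 2 minus the mean of arrays 1 and 3. Stromal marker genes lay far lower there. Col1a1, the collagen I chain of fibroblasts, read 9.58, 7.33 and 10.04 on Gata3+/- arrays 1 to 3 and 8.56, 6.68 and 9.81 on Gata3-/- arrays 1 to 3. Of 14 tested stromal markers 11 lay lower, with a median of -2.05, while Cxcl12 lay higher by 0.88. The mean level of the list was 9.38, 7.76 and 9.41 on Gata3+/- arrays 1 to 3 and 8.24, 7.26 and 9.33 on Gata3-/- arrays 1 to 3. In Gata3-/- array 1 thus lay well below array 3 too, and the mean of arrays 1 and 3 does not show this. Lum, Dcn and Fap were under the minimum throughout.

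Of the 25 members 13 (52%) lay lower on array 2 in both genotypes and 8 (32%) lay higher, against 22.5% and 21.9% of all genes. Of the 6 leukocyte integrin subunits 0 lay lower, 4 lay higher and 2 did neither. Of the 6 matrix and stromal subunits 4 lay lower, 1 lay higher and 1 did neither. Both platelet and epithelial subunits lay lower. The difference between the roles was not tested.

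**Figure D3:**
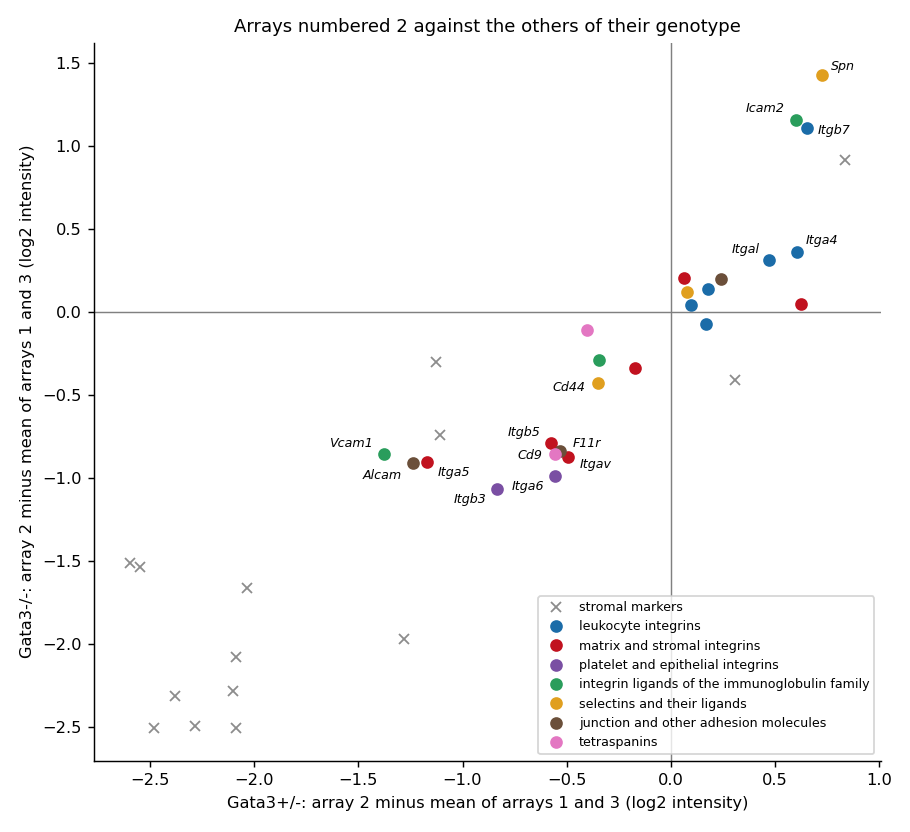
Array 2 minus the mean of arrays 1 and 3, in log2 intensity, for Gata3+/- (horizontal axis) and Gata3-/- (vertical axis). Each dot is a tested member coloured by role and each cross a stromal marker; Spn, Icam2, Itgb7, Itga4 and Itgal lie in the upper right, Vcam1, Alcam, Itga5 and Itgb3 in the lower left, and most stromal markers lie farther out, around their median of -2.05.

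Spn, Icam2 and the chains Itgb7, Itga4 and Itgal lay highest on array 2. Spn read 8.34, 9.04 and 8.29 on Gata3+/- and 7.99, 9.44 and 8.03 on Gata3-/- arrays. Array 2 was the highest of its genotype in both, with differences of 0.73 and 1.43, a mean of 1.08. It was the one member of 25 to lie higher by a mean of at least 1 (4%, against 0.514% of all genes). Itgb7 read 7.79, 8.54 and 7.99 against 7.34, 8.41 and 7.26, again with array 2 on top and differences of 0.65 and 1.11. Icam2, the constitutive LFA-1 ligand of endothelium, platelets and lymphocytes, read 8.67, 9.10 and 8.34 against 7.93, 9.32 and 8.38, by 0.60 and 1.16.

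Itga4 read 11.61, 12.10 and 11.39 on Gata3+/- and 11.68, 12.003 and 11.59 on Gata3-/- arrays. It lay higher on array 2 by 0.60 and 0.37, and its 3 other tested probe sets also did so. Itgal read 12.31, 12.96 and 12.68 against 12.52, 12.74 and 12.33, higher by 0.47 and 0.31. Cd47 lay higher by a mean of 0.22, Itga8 by 0.14 and Itgb2 by 0.07. For Itgam, Itgae, Selplg and Itga9, array 2 was neither above both others nor below both others in both genotypes, and their mean differences were 0.05 to 0.34. Cpa3, a mast cell protease, lay higher on array 2 by 1.6 and 2.57, while the other 4 mast cell markers did not pass the filter. The part of mast cells in these values was not tested.

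The members that lay lower on array 2 included the fibronectin and vitronectin receptors. Itga5 read 7.02, 6.27 and 7.87 on Gata3+/- and 7.43, 6.6 and 7.58 on Gata3-/- arrays. Array 2 was the lowest of each genotype, with differences of -1.17 and -0.90. Its second tested probe set, at 4.79 to 5.04, lay higher on array 2, so the direction rests on 1 of 2 tested probe sets. Itgav differed by -0.49 and -0.87, and in its other 2 tested probe sets array 2 was not the lowest array of both genotypes. Itgb5 read 10.93, 10.59 and 11.40 against 10.75, 9.84 and 10.50, and all 4 of its tested probe sets lay lower. Itgb1 differed by -0.17 and -0.33. Itgb3 read 9.71, 9.05 and 10.05 against 10.20, 8.66 and 9.24, a difference of -0.83 and -1.06. Its other tested probe set read 7.98, 7.22 and 6.57 on Gata3+/- arrays, so array 2 was not the lowest there. Itga6 differed by -0.55 and -0.98. In Gata3-/-, Itgb3, Itgb5 and Itga6 were highest on array 1, unlike the stromal list mean, while Itga5, Itgav and Itgb1 were highest on array 3, as that mean was.

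Vcam1 had the largest mean shift of the 25 members. It read 7.76, 6.77 and 8.54 on Gata3+/- and 8.50, 7.64 and 8.49 on Gata3-/- arrays, a difference of -1.38 and -0.85 on array 2, and its other 2 tested probe sets lay lower too. Alcam differed by -1.24 and -0.91, with all 4 tested probe sets in that direction. Vcam1, Alcam and Itga5 were the 3 members lower by a mean of at least 1 (12%, against 4% of all genes). F11r, Cd9, Cd44, Icam1 and Cd81 had mean differences between -0.70 and -0.25. Over all members, 10 of 17 further probe sets of the lower genes and 6 of 7 of the higher genes shared the direction of the chosen one. These shifts were smaller than the stromal median of -2.05. Other marker lists held lower genes too. Of the megakaryocyte and platelet markers 4 of 6 tested lay lower on array 2 and 0 higher, with a median of -0.43. Of the endothelial markers 3 of 6 lay lower and 0 higher (median -0.10), and of the monocyte and macrophage markers 4 of 10 lower and 3 higher (median -0.11). The part of stromal cells or of these other cells in each member was not tested.

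**Figure D4:**
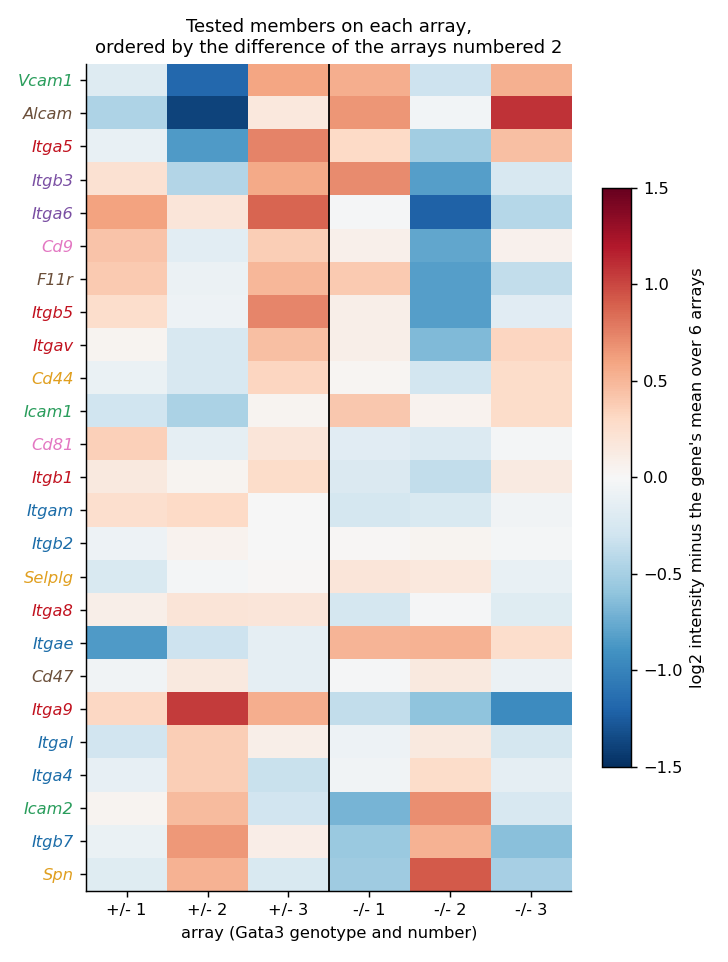
Log2 intensity of each tested member on the 6 arrays minus its own mean over them, red above and blue below, with rows ordered by how array 2 compared with the others and gene names coloured by role as in the plot of genotype differences. In the upper rows, from Vcam1 to Itgb1, the second column lies below the other columns of its genotype, in the lowest rows, Itgal to Spn, it lies above them, and Itga9 separates the genotypes.

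Genes that link integrins to the cytoskeleton or make selectin ligands were taken as a list of 54, of which 45 were tested. In that list 1 fell, 0 rose and 44 did not pass, a share of 2.22% against 5.27% of all genes in either direction and 2.41% as lower. The median difference was -0.11, with 13 positive and 32 negative, against -0.02 over all genes, with 4809 positive and 5493 negative. St3gal6, a sialyltransferase that caps selectin ligands, read 9.55, 9.68 and 9.12 on Gata3+/- and 7.88, 8.39 and 7.68 on Gata3-/- arrays. The groups did not overlap, and it fell by 1.47 (SE 0.23, adjusted p = 0.0383). The call was lost without the filter (adjusted p = 0.100) and without both arrays numbered 2 (0.0947). Leaving out any 1 array ended it, with adjusted p-values from 0.0699 to 0.125, and they lay between 0.0149 and 0.125 over all alternatives run. As given for Itga9, calls over all genes also fell to between 0 and 4 with each array left out. Fut7, the fucosyltransferase of leukocyte selectin ligands, never reached the minimum. Tln1 (talin) and Fermt3 (kindlin-3), which activate integrins from inside the cell, had differences of 0.02 and -0.11.

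Kindlins and parvins within this list were singled out after their values were seen, since their members differed in how array 2 compared with the others. Other paralogues of the list went either way. Tpst1 and Tpst2 also divided, with mean differences of 0.48 (higher) and -0.23 (lower). Actn1 and Actn4 (alpha-actinins) did not divide and both lay lower, as did the tensins Tns1 and Tns3, and the talins Tln1 and Tln2 did neither. Fermt2, the kindlin of fibroblasts and other adherent cells, read 8.02, 4.79 and 7.93 on Gata3+/- and 7.02, 6.07 and 7.93 on Gata3-/- arrays, a difference on array 2 of -3.18 and -1.41. Fermt3, the kindlin of blood cells, lay higher by 0.10 and 0.09. Parva and Parvb, parvins of broad and of muscle expression, had mean differences of -1.75 and -1.64, while Parvg, the parvin of blood cells, lay higher by a mean of 0.59. Parva reached the minimum on 3 of the 6 arrays, so its size depends on values near the floor. Over the 45 genes 19 lay lower on array 2 in both genotypes (42.2%, against 22.5% of all genes) and 9 higher (20%, against 21.9%).

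**Figure D5:**
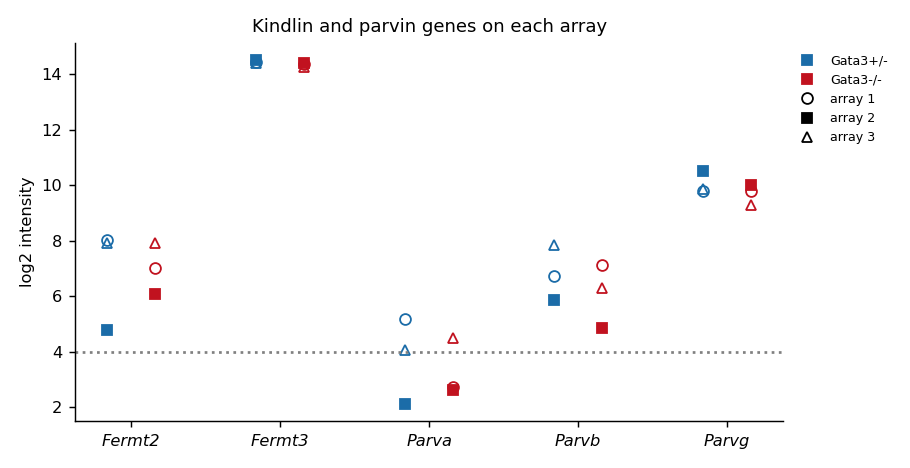
Log2 intensity of kindlin genes (Fermt2, Fermt3) and parvin genes (Parva, Parvb, Parvg) on each array, Gata3+/- in blue and Gata3-/- in red, with array 2 as filled squares and the filter minimum of 4 dotted. Array 2 is the lowest of its genotype for Fermt2, Parva and Parvb and the highest for Fermt3 and Parvg; levels of different genes are not comparable.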

How the data were processed

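Gene expression was measured in 6 samples, 3 per genotype as titled. The authors deposited linear intensities for 45101 probe sets, made with GC-RMA per the labels; GCOS is named in the submitters' processing notes, and other settings were not found in the labels. The log2 was taken here, with no further normalization, and 64 control probe sets were left out. Low GC-RMA values form a floor, so a probe set was tested where log2 reached 4 on at least 3 arrays, which left 20102. The test was limma (version 3.58.1, under R 4.3.3), two-sided, with moderated variances. Its p-values were adjusted by the Benjamini-Hochberg method across the tested probe sets, and an adjusted p under 0.05 was a call. The platform annotation gave 1 symbol to 34958 probe sets, several to 932 and did not list 9211, and each gene was represented by its tested probe set with the highest mean. Chromosomes and promoter windows came from RefSeq tables of GRCm38.p6. The procedure was checked on simulated data. The simulated noise was independent between arrays, so the check does not cover deviations shared by arrays of the same number.

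The members, roles and lists were chosen with earlier results of these data known. Every member is accounted for, and full values are given where it passed the test, where genotypes did not overlap, or where array 2 differed from the others by a mean of at least 1 in both genotypes; further members are given as examples chosen after their values were seen. The titles call the replicates biological without saying whether they were separate cultures or clones, so the p-values cover no more than the spread of these samples. Alternatives were no filter, a minimum of 6, centring on the median, quantile normalization, array weights, a robust fit with a variance trend, the replicate block, averaged probe sets, and arrays left out. Leaving out arrays numbered 1 or 3 from the description of array 2 was added after seeing the data. Plots were drawn with matplotlib version 3.10.9.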

Additional observations from a re-analysis of the deposited data

How the results depend on the processing

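Of the members 1 passed between genotypes. The count was 0 without a filter (7 at an unadjusted p under 0.05 with limma), 3 with array weights (Itgae, Icam1 and Itga9), 0 without both arrays numbered 2 (10 unadjusted), and 0 with each array left out in turn (3 to 7 unadjusted). It was 1 under every other alternative run, although under the replicate block that member was Alcam (adjusted p = 0.0431, over a range of 0.0431 to 0.540) and Itga9 was not called (0.0689). The correlation of deviations about each genotype's mean was 0.00501 for arrays numbered 1, 0.695 for 2 and 0.429 for 3. Arrays numbered 2 and 3 thus shared deviations across genotypes, and arrays numbered 1 did not. The labels do not say whether a number marks a shared culture or batch, and the main fit does not pair the arrays by number. Its SE therefore includes spread that arrays of the same number share. The machinery count of 1 became 0 without a filter (10 unadjusted), 2 with the stricter filter, 2 with the variance trend, 4 with array weights, 3 with averaged probe sets, 0 without both arrays numbered 2 (6 unadjusted) and 0 with each array left out (5 to 9 unadjusted), and the cause was not tested. Fits without an array hold fewer samples. Over all genes the calls went from 543 to 98 without a filter, 3 without both arrays numbered 2 and 0 to 4 with each array left out. At an unadjusted p under 0.05 (limma), 2663 of 10302 genes differed in the main fit and 3007 of 18193 without a filter. The unadjusted counts were 2037 without both arrays numbered 2 and 2043 to 2484 with each array left out.

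Differences that changed sign were those of 10 members near 0, none called in either setting. With each array left out they ran from -0.29 to 0.037 for Itgal, -0.10 to 0.26 for Itga4, -0.013 to 0.053 for Itgb2, -0.24 to 0.56 for Itga5, -0.38 to 0.12 for Itgav, -0.65 to 0.12 for Itgb3, -0.54 to 0.15 for Icam2, -0.55 to 0.17 for Spn, -0.11 to 0.19 for Cd44 and -0.042 to 0.10 for Cd47. Itgal was 0.022 with array weights, and averaged probe sets gave -0.013 for Cd44 and -0.14 for Cd47. Of 374 member values under the alternatives, 340 kept direction and side of the threshold. The counts of members lower or higher on array 2 stayed at 12 to 13 and 7 to 11 under the alternatives run.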

Other observations

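Some dim probe sets left the floor on Gata3-/- array 2 alone, and they were noticed after the values were seen. Icam4 read 4.51 there and at most 3.10 on the other arrays. A second probe set of Spn read 4.62 there and 3.44 to 3.6 elsewhere, and a further probe set of Itga4 read 3.88 there and 2.86 to 2.95 elsewhere. Mcpt4, a mast cell protease, read 4.26 there and 2.34 to 2.36 elsewhere.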
